A study of Bos taurus with 42 samples.

Results

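The genes described here belong to 7 families that attach ubiquitin to proteins or remove it. They were the genes in the count table whose symbol, as given in the study's supplementary tables, is FBXL, FBXO, FBXW, KLHL, ASB, TRIM or USP followed only by digits. The rule found 73 of the 22664 genes with counts, of which 8 were FBXL, 7 FBXO, 2 FBXW, 16 KLHL, 8 ASB, 16 TRIM and 16 USP genes. The tables name 5131 of the genes with counts, so other genes of these families are not analysed here. Of the 73 members, 66 had a symbol because they stood in listed pairs of differentially co-expressed genes, 5 stood on the study's tissue-specific lists (KLHL31, TRIM54 and TRIM55 for muscle, TRIM10 and TRIM58 for liver) and 2 on its lists of diet-responsive genes (ASB2 for muscle, FBXW5 for liver). All these lists were made from the same libraries, so for the last 7 genes the values in the listed comparison are given as a description. The co-expression pairs were listed because their correlation differed between the diets. For genes of those pairs, correlations within each diet are therefore a description too.

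RNA-Seq counts came from the cerebrum, the liver and the left hind limb muscle of 14 bovine fetuses at day 50 of gestation, which makes 42 libraries with 1 library per tissue and fetus. The dams were crossbred Angus heifers bred to 1 sire, and those of 7 fetuses were fed at 100% of requirement (CON) while those of the other 7 received 60% of the CON delivery (RES) from breeding on. CON had 6 male fetuses and 1 female, and RES had 5 males and 2 females. The libraries held 4145093 to 12741299 counts, with medians of 5322765.5 for cerebrum, 8130072.5 for liver and 6644024.5 for muscle libraries, and the members took 0.0279% to 0.464% of a library.

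Ubiquitin is a small protein that an activating enzyme (E1), a conjugating enzyme (E2) and a ligase (E3) attach to other proteins, often as a mark for the proteasome. F-box proteins (FBXL, FBXO, FBXW) bring substrates to ligases built on the scaffold CUL1, KLHL proteins to those built on CUL3, and ASB proteins to those built on CUL5. Most TRIM proteins carry a RING domain and are ligases themselves, and USP proteins are proteases that cut ubiquitin off. Several TRIM, KLHL and ASB proteins are known from the sarcomere of striated muscle, the axon or the maturing red cell.

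Markers of neurons, hepatocytes and skeletal muscle were highest in the tissue of that label. The 8 neuron markers summed to 2238 to 9150 CPM (counts scaled to a common library total) in the cerebrum and to at most 36.4 CPM in the liver, the 7 hepatocyte markers to at least 107545 CPM in the liver, and the 11 skeletal muscle markers to at least 481 CPM in muscle and at most 81.8 CPM elsewhere. The fetal liver also held 6 erythroid markers at 9906 to 17811 CPM, and the hind limb held 2 cartilage markers at 15.7 to 65.0 CPM and a Schwann cell marker at 3.06 to 33.5 CPM. Neural progenitor markers (3 genes) lay at 74.5 to 160 CPM in the cerebrum and at most 0.298 CPM in the liver, with 9.55 to 25.8 CPM in muscle, where EMX2 gave most of the sum. A macrophage marker lay at 16.2 to 26.9 CPM in the liver and at 6.84 to 22.9 CPM in muscle. The 3 limb mesenchyme markers summed to 194 to 390 CPM in muscle, 11.6 to 121 CPM in the cerebrum and 157 to 389 CPM in the liver, where PDGFRB gave nearly all of the sum and at least 1 of the 3 was at 0 in every library. In such bulk tissue, fewer cells of a type and less RNA per cell cannot be told apart.

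A few libraries stood apart. The cerebrum of RES fetus 1 had hepatocyte markers at 6090 CPM, of which TTR, a gene that the choroid plexus also expresses, took 5632 CPM, along with erythroid markers at 272.8 CPM and muscle markers at 81.8 CPM. Its mitochondrial share was 14.7%, against 2.73% to 6.89% in the other 13 cerebrum libraries, and its median member lay at -0.62 on the log2 scale relative to the member medians over the cerebrum, the lowest of the 14. Without TTR its hepatocyte markers were still at 459 CPM, with all 7 above 0. The cerebrum of RES fetus 33 held 325 CPM of hepatocyte markers, led by AHSG at 92.2 CPM. The cerebrum of CON fetus 23 had neuron markers at 9150 CPM, against 2238 to 4661 CPM in the other 13. Neuron markers, led by STMN2, reached 1501 CPM in the muscle of CON fetus 73 and 345 CPM in that of RES fetus 1, with all 8 markers above 0 in both. In 4 livers, mitochondrial genes took 30.5% to 67.7% of the counts (RES fetuses 1, 6 and 33 and CON fetus 2), against 4.04% to 16.4% in the other 10.

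The tissues differed far more than the diets. Called genes in a tissue comparison had an adjusted p under 0.05 in edgeR's quasi-likelihood test and a difference of at least 2-fold. From cerebrum to liver, 35 of 73 members were higher in the cerebrum, where 33.9% of all 15972 genes tested were, and 12 were lower, beside 27.1% of all genes. Between muscle and liver, 35 members were higher in muscle, beside 33.5% of all genes, and 11 were lower, beside 23.2%. Between muscle and cerebrum, 15 were higher in muscle and 16 lower, beside 18.7% and 18.4% of all genes. The median log2 difference of the members was 0.82 for cerebrum minus liver and 0.90 for muscle minus liver, against 0.17 and 0.21 over all genes. With fetuses 1, 23 and 73 left out, the counts changed by less than 1.5 times.

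**Figure D1:**
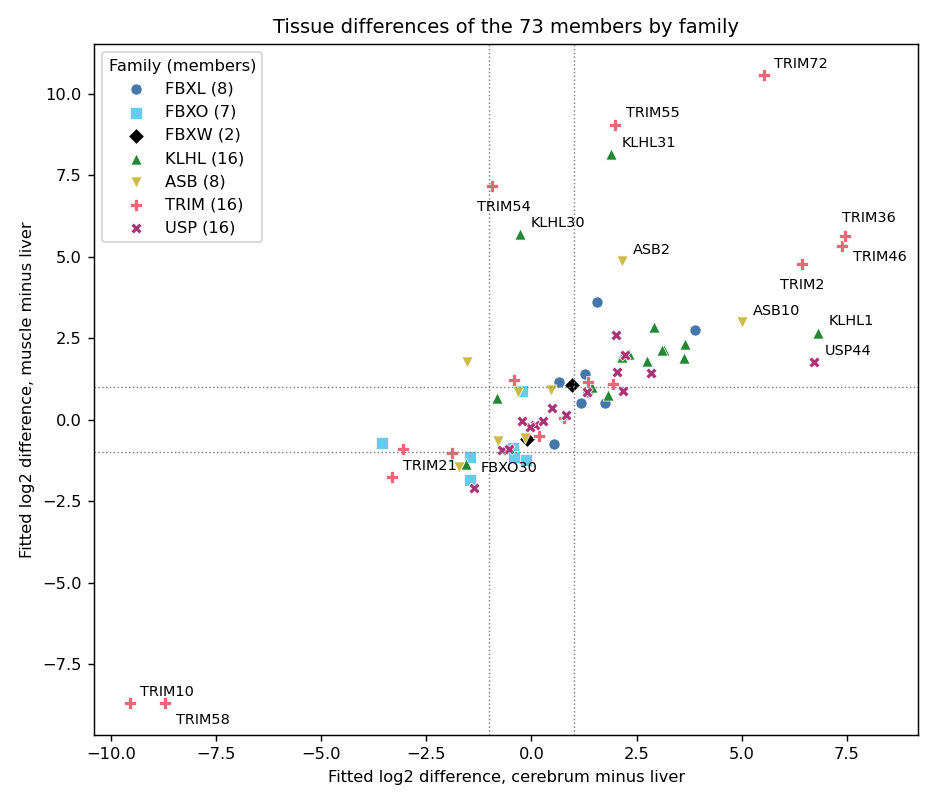
Each point is 1 of the 73 members, placed by its fitted log2 difference between cerebrum and liver (x axis) and between muscle and liver (y axis), with marker and colour by family and dotted lines at 2-fold. KLHL genes lie mainly in the upper right, FBXO genes mainly below and left of 0, and TRIM genes reach both far corners; fitted values of genes with almost no counts in a tissue depend on the prior count of the fit.

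The families fell differently over the tissues. KLHL adaptors were low in the liver: 12 of 16 were called lower there than in both other tissues, beside 25.7% of all genes, and over the 73 members 29 were. KLHL5, KLHL7, KLHL8, KLHL9, KLHL11, KLHL13, KLHL20, KLHL24 and KLHL28 were among the 12, and they were also called with fetuses 1, 23 and 73 left out. With only libraries of a mitochondrial share up to 25%, KLHL2 dropped out of the 12. Of the other liver-low members, FBXL17, TRIM33, TRIM55 and USP44 then dropped out. KLHL9 and KLHL13, which act together with CUL3 in cell division, are an example. KLHL9 lay at 19.5 to 118.5 CPM in the 14 cerebrum libraries (median 77.3), 3.18 to 16.9 in the liver (median 9.48) and 27.2 to 51.6 in muscle (median 43.4), and KLHL13 had medians of 98.0, 21.9 and 77.1 CPM. For KLHL9, every cerebrum and muscle library was above every liver library. KLHL5 was 2.90 ± 0.17 (SE) higher in the cerebrum and 2.86 ± 0.17 higher in muscle than in the liver on the log2 scale. Only KLHL26 was called higher in the liver than in both other tissues, at 13.1 to 22.6 CPM there against 2.95 to 9.73 in the cerebrum and 5.17 to 7.94 in muscle, with no overlap of the libraries.

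Of 8 FBXL adaptors, 6 were called higher in the cerebrum than in the liver (33.9% of all genes were) and none lower, and 4 were called higher in muscle than in the liver (33.5% of all genes). Between muscle and cerebrum 1 was higher and 3 were lower in muscle, and 2 of 8, FBXL2 and FBXL19, were called higher in the cerebrum than in both other tissues, beside 18.7%, 18.4% and 13.9% of all genes. FBXL19, known from its binding to unmethylated CpG DNA, had a median of 82.2 CPM in the cerebrum, 36.2 in muscle and 5.62 in the liver, and its lowest cerebrum value of 26.0 CPM was above its highest liver value of 10.9. FBXL7, FBXL17 and FBXL21 had their highest mean in muscle, and of these FBXL7 was called higher there than in both other tissues, with 12.7 to 31.8 CPM in muscle (median 19.7), 1.72 to 10.3 in the cerebrum (median 4.55) and at most 4.42 in the liver (median 1.27). Its muscle libraries overlapped with neither other tissue, and the fitted log2 difference was 2.05 ± 0.25 against the cerebrum and 3.62 ± 0.28 against the liver.

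Of the 7 FBXO adaptors, none was called higher in the cerebrum or in muscle than in the liver, beside 33.9% and 33.5% of all genes. In the cerebrum 3 were called lower and in muscle 4, beside 27.1% and 23.2%. By mean CPM, 6 were highest in the liver, a count given without a share over all genes. With only libraries of a mitochondrial share up to 25%, FBXO15 lost its call and FBXO31 gained one as higher in the liver. FBXO5 (EMI1), an inhibitor of the ligase that drives exit from mitosis, had a median of 43.4 CPM in the liver, 12.4 in the cerebrum and 17.2 in muscle. However, its lowest liver value of 9.13 CPM lay within the cerebrum range and below every muscle library. FBXO17 was at 7.24 to 39.8 CPM in the liver and 4.12 to 14.5 in muscle, against 0.17 to 6.67 in the cerebrum. The FBXW pair had small differences: FBXW11 (β-TrCP2) was called higher in muscle than in the liver, and FBXW5 reached 2-fold in no tissue comparison.

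ASB and TRIM genes were mixed, while most USP genes called against the liver were lower in the liver. Of 8 ASB genes, 2 were called higher and 2 lower in the cerebrum than in the liver, and 3 higher and 1 lower in muscle than in the liver. Of 16 TRIM genes, 7 were higher and 5 lower in the cerebrum than in the liver, and 9 higher and 4 lower in muscle, where all genes had 33.9% higher and 27.1% lower in the cerebrum and 33.5% and 23.2% in muscle. Of 16 USP genes, 7 were higher in the cerebrum than in the liver and 1 lower, beside 33.9% and 27.1% of all genes. In muscle 5 of 16 were higher than in the liver, near the 33.5% of all genes, and 1 was lower, beside 23.2%. None was called higher in muscle than in the cerebrum and 3 were lower, beside 18.7% and 18.4% of all genes. USP28 had the highest median of its own in muscle, at 120 CPM, with 80.7 in the cerebrum and 19.4 in the liver.

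Over the 73 members, 14 were called higher in the cerebrum than in both other tissues, 9 in the liver and 9 in muscle, beside 13.9%, 19.0% and 9.79% of all genes. With a filter that keeps a gene at a CPM of at least 1 in 80% of the 42 libraries, 57 members were tested. The counts were then 11, 6 and 1, and the shares over all genes for that filter are not given here. In the cerebrum USP44, KLHL1, TRIM46, ASB10 and TRIM36 were lost, and KLHL11 and KLHL28 were gained. The liver set lost TRIM10, TRIM58 and TRIM34. Most muscle-high genes are then not tested, and only FBXL7 stayed. The liver and muscle counts include the 5 genes of the study's tissue-specific lists. USP44, TRIM58, TRIM54, TRIM55, KLHL31 and KLHL30 stayed under 1 CPM in every library of the other tissues. They passed the main filter only through the tissue where they are high, so their calls and folds are a description. The 14 cerebrum-high genes were USP44, KLHL1, TRIM46, ASB10, TRIM36, KLHL7, TRIM2, USP49, KLHL24, USP33, FBXL2, FBXL19, KLHL25 and KLHL9. The 9 liver-high genes were TRIM10, TRIM58, TRIM21, FBXO30, ASB11, USP32, KLHL26, FBXO5 and TRIM34. The 9 muscle-high genes were TRIM54, TRIM55, KLHL31, KLHL30, TRIM72, ASB2, FBXL7, ASB16 and TRIM56. With a block for the animal, 12, 9 and 9 were called, since KLHL9 and KLHL25 no longer reached 2-fold.

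**Figure D2:**
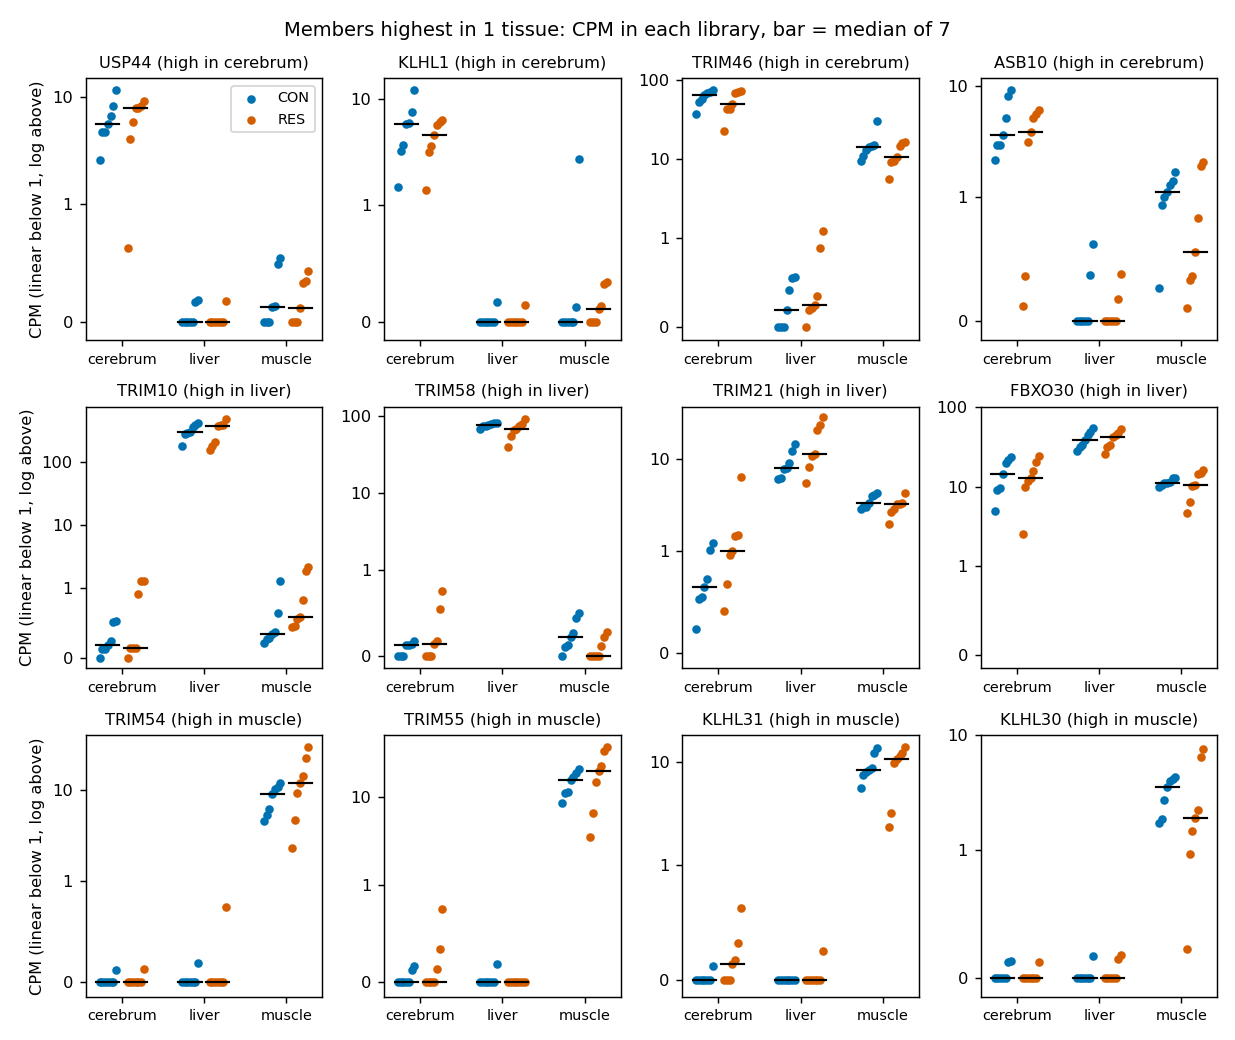
TMM-normalised CPM of the 4 members per tissue with the largest smaller difference to the other tissues, for every library (blue CON, orange RES, bar at the median of 7), on an axis that is linear below 1 and logarithmic above. TRIM10 and TRIM58 stay at or below 2.15 CPM outside the liver, and TRIM54, TRIM55, KLHL31 and KLHL30 at or below 0.76 CPM outside muscle.

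USP44, a nuclear deubiquitinase known from the mitotic checkpoint, led the cerebrum-high genes. It had 588 counts in the 14 cerebrum libraries, at 0.63 to 11.6 CPM (median 6.22), against 22 counts over all muscle libraries and 3 over all liver libraries. No cerebrum library overlapped with the others, and the pooled CPM was 32.8-fold that of muscle (95% counting interval 21.7 to 52.4) and 148-fold that of the liver (50.5 to 715). KLHL1, a neuronal actin-binding Kelch protein, had 498 counts in the cerebrum (1.38 to 12.0 CPM, median 5.05), 34 in muscle and 2 in the liver. Of the 34 in muscle, 25 came from CON fetus 73, the library with the most neuron marker RNA, whose 2.71 CPM reached into the cerebrum range, and 8 muscle libraries had none. Without that fetus the difference of muscle minus cerebrum moved from -4.13 to -5.59.

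TRIM46 organises microtubules at the start of the axon. It lay at 22.6 to 73.3 CPM in the cerebrum (median 60.2), 5.55 to 29.7 in muscle (median 13.6) and 0 to 1.24 in the liver (median 0.23). The highest muscle value was again that of CON fetus 73 and the lowest cerebrum value that of RES fetus 1. TRIM36 and TRIM2, which binds neurofilaments, had the same order of tissues, with medians of 32.7, 9.59 and 0.09 CPM for TRIM36 and 275, 91.6 and 2.92 CPM for TRIM2 in the cerebrum, muscle and liver. ASB10 was a weaker case: it lay at 0.13 to 9.17 CPM in the cerebrum (median 3.75) and 0.11 to 2.07 in muscle (median 0.98), so that these tissues overlapped, and it had 8 counts over all liver libraries.

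Among the liver-high genes, TRIM10 and TRIM58 stood far from the rest. Both are known from erythroid cells: TRIM10 takes part in terminal erythroid differentiation, and TRIM58 acts on the motor protein dynein when erythroblasts expel the nucleus. TRIM10 lay at 152 to 476 CPM in the 14 livers (median 325), at 0 to 1.29 in the cerebrum and at 0.21 to 2.15 in muscle. Of its 38 counts in the cerebrum, 10 came from RES fetus 1, the library with the most erythroid marker RNA. TRIM58 lay at 39.8 to 93.4 CPM in the liver (median 76.1) and at 15 counts over all cerebrum and 19 over all muscle libraries, so that its pooled CPM was 478-fold (290 to 853) and 463-fold (296 to 769) that of the cerebrum and muscle.

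The next liver-high genes differed less. TRIM21, an intracellular antibody receptor, lay at 5.52 to 28.6 CPM in the liver (median 9.92), 0.24 to 6.42 in the cerebrum (median 0.85) and 1.95 to 4.29 in muscle (median 3.25). Only the cerebrum of RES fetus 1, which gave 51 of the 124 cerebrum counts, overlapped with the liver. FBXO30, known as a ligase adaptor of muscle wasting, was at 25.7 to 53.7 CPM in the liver (median 40.6), 2.52 to 24.2 in the cerebrum and 4.64 to 16.3 in muscle, without overlap. Its log2 difference was -1.47 ± 0.21 for cerebrum minus liver (edgeR, adjusted p = 1.77e-08) and -1.83 ± 0.21 for muscle minus liver (edgeR, adjusted p = 1.09e-10).

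The muscle-high genes were led by sarcomere genes. TRIM54 (MuRF3) and TRIM55 (MuRF2) are ligases of the sarcomere and its microtubules, and KLHL31 is needed for sarcomere structure. TRIM54 lay at 2.33 to 30.1 CPM in muscle (median 9.84), with 2 counts over all cerebrum and 4 over all liver libraries. TRIM55 lay at 3.55 to 37.4 CPM (median 16.4), with 11 counts over all cerebrum and 1 over all liver libraries. KLHL31 lay at 2.33 to 13.9 CPM (median 9.2), with 10 counts in the cerebrum and 1 in the liver. The few counts in the cerebrum were concentrated: RES fetus 1 gave 6 of 11 for TRIM55 and 5 of 10 for KLHL31.

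KLHL30 and TRIM72, which were on none of the study's tissue-specific lists, showed the same pattern. KLHL30 lay at 0.22 to 7.58 CPM in muscle (median 2.47), with 3 counts each over all cerebrum and all liver libraries, and its pooled CPM in muscle was 99.4-fold (34.0 to 482) that of the cerebrum. TRIM72 (MG53), which takes part in membrane repair of muscle fibres, lay at 5.99 to 62.0 CPM in muscle (median 28.4) and 0 to 1.58 in the cerebrum (median 0.61). It had 0 counts in all 14 livers, so against the floor of 3 counts over the group it was at least 681-fold higher in muscle. ASB2, an adaptor of CUL5 ligases, lay at 4.99 to 48.7 CPM in muscle (median 18.4), 0.74 to 5.23 in the cerebrum and 0 to 1.94 in the liver.

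The most even member of each family, by the range of the 3 tissue means on the log2(CPM + 1) scale, was FBXL21, FBXO31, FBXW5, KLHL21, ASB8, TRIM39 or USP14. USP14, the deubiquitinase bound to the proteasome, was the most even of all, with a range of 0.16 and medians of 63.8 CPM in the liver, 59.2 in the cerebrum and 56.0 in muscle. It was followed by USP30 (0.21), USP8 (0.23) and USP5 (0.28). FBXW5 ranged over 0.44 and ASB8 over 0.50, while the most even KLHL gene, KLHL21, still ranged over 1.41 and was highest in muscle, at 14.8 to 26.7 CPM. In RefSeq's gene order for ARS-UCD2.0, where all 73 members were found by symbol, TRIM39 and TRIM10 were the only pair of members within 10 protein-coding genes of each other, with 7 genes between. TRIM39 had medians of 10.7, 10.3 and 6.77 CPM in the cerebrum, liver and muscle, without the liver level of TRIM10.

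The fetuses were most alike in muscle. The median over members of the SD of log2 CPM among 14 libraries was 0.26 in muscle, 0.47 in the cerebrum and 0.64 in the liver. The widest members in muscle were its own high genes, namely TRIM72 (SD 0.93), KLHL30 (0.92), TRIM54 (0.91) and TRIM55 (0.86), while FBXO3 (0.06) and the iron sensor FBXL5 (0.10) hardly varied. In the cerebrum ASB10, KLHL24, TRIM34 and KLHL28 varied most, and USP4 least (0.14). RES fetus 1 was the lowest library for ASB10, KLHL24 and KLHL28 and the highest for TRIM34.

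The spread of TRIM54 and TRIM55 in muscle followed that of the muscle markers, with both on a log2 scale. The summed CPM of the 11 markers ranged from 481 to 4207 over the 14 muscle libraries. TRIM54 correlated with it at r = 0.97 and rho = 0.95 (n = 14, permutation p = 2e-05 for both, the smallest that 100000 resamples can give; adjusted over 6 relations, 6e-05), and TRIM55 at r = 0.96 and rho = 0.95 (permutation p = 2e-05; adjusted 6e-05). Without the 2 libraries farthest from the median marker sum on that log2 scale, RES fetuses 25 and 70, r was 0.97 and 0.95, and within CON and RES it was 0.94 and 0.98 for TRIM54 and 0.88 and 0.98 for TRIM55. Both measures share the library and its scaling. RES fetus 25 and RES fetus 70 were at the low end of the markers and RES fetuses 1 and 6 at the high end.

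The other 4 genes did not pass the test. TRIM10 and TRIM58 correlated with the erythroid markers of the liver at r = 0.15 (rho = 0.03) and r = -0.03 (rho = 0.01), with permutation p = 0.623 and 0.877 (adjusted 0.748 and 0.877). KLHL1 and TRIM46 correlated with the neuron markers of the cerebrum at r = 0.32 (rho = 0.44) and r = 0.15 (rho = 0.19), with permutation p = 0.259 and 0.601 (adjusted 0.518 and 0.748). Within CON and RES (7 libraries each), r was -0.32 and 0.50 for TRIM10, 0.34 and 0.0256 for TRIM58, 0.07 and 0.73 for KLHL1, and -0.74 and 0.80 for TRIM46, so that the direction turned with the diet for TRIM10 and TRIM46; the difference was not tested. KLHL1 stood in the study's co-expression pairs for the cerebrum and TRIM58 in those for the liver, so their values by diet are a description. For KLHL1, r was 0.53 without CON fetus 23 and RES fetus 1.

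**Figure D3:**
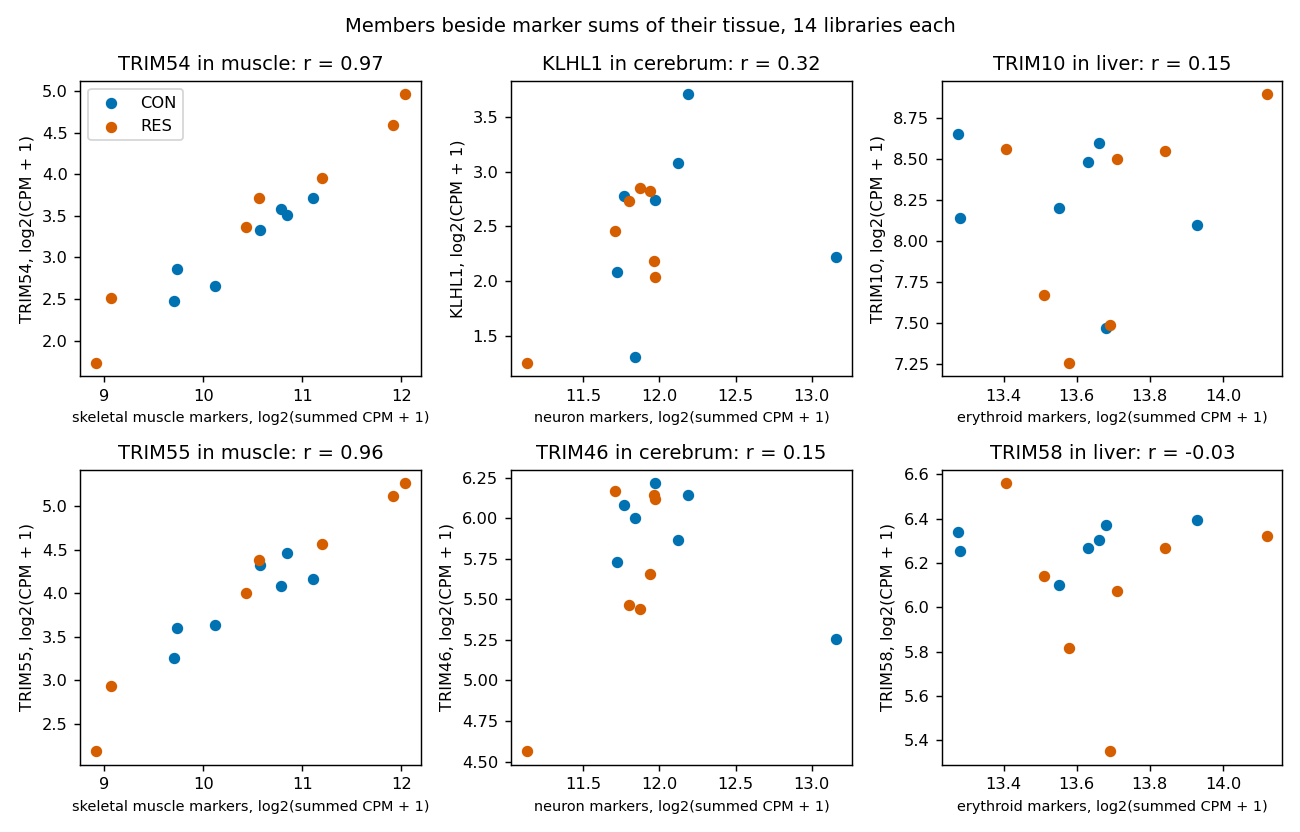
Level of 6 members, as log2(CPM + 1) on the y axis, against a marker list of the same tissue, as log2(summed CPM + 1) on the x axis, with 1 point per library (blue CON, orange RES, 14 per panel). TRIM54 and TRIM55 rise with the muscle markers in both diets, while the other 4 panels show no line, with CON fetus 23 and RES fetus 1 at the ends of the neuron axis.

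The comparison of the diets asked whether restriction of the dam was reflected in these genes. No member, and 0.0% of all genes, passed an adjusted p of 0.05 between diets in edgeR's test of any tissue, and DESeq2's Wald test called 0 members in each tissue too, while over all genes it called 78 for the liver, 14 for muscle and 0 for the cerebrum. At an unadjusted p under 0.05, edgeR had 3 of 67 members in the cerebrum, beside 2.55% of all 15151 genes, 15 of 61 in the liver, beside 24.1% of 13527, and 4 of 70 in muscle, beside 9.91% of 14947. The diet by tissue interaction gave 0 members and 0.0% of all genes after adjustment, and 6 of 73 members at an unadjusted p under 0.05, beside 5.62% of 15972. DESeq2 had 3, 17 and 4 members at an unadjusted p under 0.05 in the cerebrum, liver and muscle, where over all genes it had 334 of 14839, 3793 of 13519 and 1460 of 14763. Its likelihood ratio test of the interaction had 6 members, and 1108 of 15901 genes, at an unadjusted p under 0.05, and 0 members and 2 genes after adjustment. Of the 73 members, 67 had their highest group median in the same tissue in CON and RES, and the 6 others were FBXL15, FBXO15, FBXW5, TRIM39, USP8 and USP30.

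**Figure D4:**
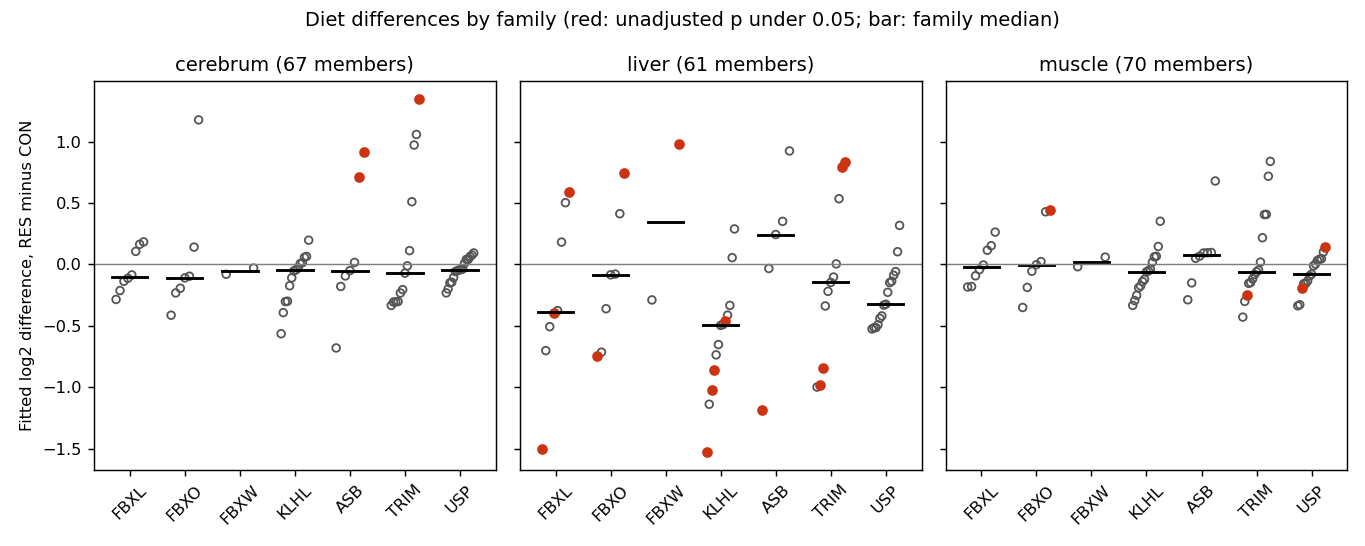
Fitted log2 difference of RES minus CON for each member kept in a tissue, by family, with red points for an unadjusted p under 0.05 and a bar at the family median. In muscle the family medians lie between -0.08 (USP) and 0.08 (ASB), while single genes such as ASB2 lie farther from 0. In the liver the KLHL, FBXL and USP medians lie below 0 at -0.50, -0.39 and -0.32. None of the members passed the adjusted test.

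In the liver, 44 of 61 members had a fitted value below 0 (lower in RES), beside 52.1% of all genes, with a median of -0.33 against -0.03 over all genes. By family, 11 of 13 KLHL genes (median -0.50), 13 of 15 USP genes (median -0.32) and 5 of 8 FBXL genes (median -0.39) were below 0. So were 5 of 7 FBXO genes (median -0.08) and 7 of 11 TRIM genes (median -0.15), while 3 of 5 ASB genes were above. Without the sex covariate the median was -0.19 over the members, against -0.01 over all genes. It was then -0.38 for KLHL, -0.17 for USP and -0.30 for FBXL genes. In the cerebrum 43 of 67 members were below 0, beside 55.1% of all genes, and in muscle 40 of 70, beside 51.9%; with the libraries named above left out these majorities turned, to 30 of 66 below 0 without fetuses 1 and 23 and 31 of 70 without fetuses 1 and 73. The mitochondrial share moved with the liver values, and 3 of the 4 livers past 25% were RES. Relative to each member's own median over all livers, the median member was at -0.77 to -0.21 on the log2 scale in those 4 and at -0.23 to 0.29 in the other 10. Among the 10 livers with a share up to 25% (6 CON, 4 RES), 32 of 61 members were below 0. The member median was -0.03, against -0.001 over all genes. Of the USP genes, 9 of 15 were above 0 (median 0.04). Below 0 were 5 of 8 FBXL genes (median -0.06) and 10 of 13 KLHL genes (median -0.26, against -0.50 with all livers). The medians were -0.04 for FBXO and 0.03 for TRIM genes. Of the 15 members with an unadjusted p under 0.05, 2 of 61 were left, namely KLHL8 and FBXW5, which the study had listed for this comparison, while over all genes the count went from 3260 of 13527 to 922 of 13435. The part of the mitochondrial share in the diet values was not tested.

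**Figure D5:**
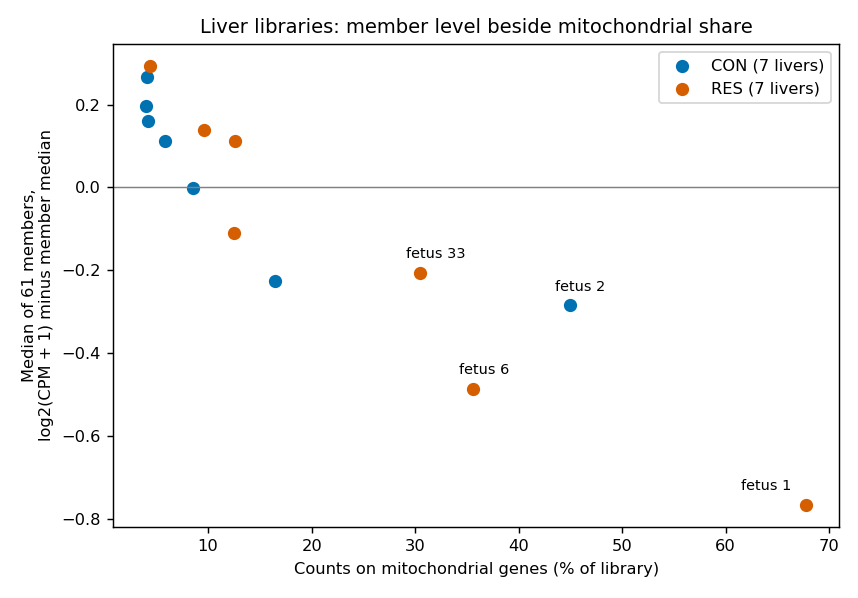
Median over 61 members of their log2(CPM + 1), relative to each member's own median over the 14 livers (y axis), against the share of counts on 12 mitochondrial genes (x axis, %), with 1 point per liver (blue CON, orange RES). The 4 livers above 25%, with fetus numbers, lie between -0.77 and -0.21, and the 5 livers with the lowest shares, 4.04% to 5.84%, between 0.11 and 0.29; these 5 are 4 CON livers and 1 RES liver.

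KLHL8 had the lowest p of the members in the liver. It lay at 2.59 to 5.54 CPM in CON (median 4.33) and 0.37 to 5.36 in RES (median 1.30). In RES, 5 livers were at 0.37 to 1.57 CPM, below every CON liver, and the other 2 were at 4.31 and 5.36. The fitted difference was -1.53 ± 0.38 (edgeR, adjusted p = 0.184), -1.02 ± 0.39 with the 10 livers of low mitochondrial share and -0.95 ± 0.44 without the sex covariate. TRIM47 lay at 4.55 to 12.7 CPM in CON (median 8.82) and 5.25 to 21.3 in RES (median 12.4), with a difference of 0.84 ± 0.25 (edgeR, adjusted p = 0.184) and of 0.51 ± 0.28 in those 10 livers. FBXW5, which the study had listed for this comparison, lay at 18.1 to 53.4 CPM in CON (median 25.8) and 18.8 to 93.2 in RES (median 46.6), a fitted log2 difference of 0.98 ± 0.28. It was 0.58 ± 0.23 in the 10 livers. KLHL5, KLHL11 and KLHL13 also had an unadjusted p under 0.05, with differences of -0.85, -1.03 and -0.46, and their adjusted p in edgeR's test was 0.184 to 0.197. In the 10 livers these differences were -0.63 ± 0.32, -0.88 ± 0.62 and -0.41 ± 0.21, without an unadjusted p under 0.05. CPM values in comparisons of the diets were normalised within a tissue.

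In the cerebrum, the 3 members with the lowest p were all higher in RES. Over all genes, 331 of the 386 with an unadjusted p under 0.05 were also higher in RES. ASB11 lay at 4.23 to 9.27 CPM in CON (median 7.44) and 6.12 to 29.0 in RES (median 12.4), a difference of 0.92 ± 0.32 (edgeR, adjusted p = 0.999). TRIM21 lay at 0.32 to 1.55 CPM in CON (median 0.91) and 0.53 to 8.26 in RES (median 1.28), a difference of 1.35 ± 0.52 (edgeR, adjusted p = 0.999). Both are liver-high genes, and for both the highest value was that of RES fetus 1, which carried hepatocyte and erythroid markers and the highest mitochondrial share of the 14 cerebrum libraries. In the diet comparison of the cerebrum, 5 of 5 hepatocyte markers tested (median 2.14), 5 of 5 erythroid markers (median 1.88) 6 of 6 skeletal muscle markers (median 2.16) and 3 of 3 limb mesenchyme markers (median 2.18) also had fitted values above 0, while 7 of 8 neuron markers were below 0 (median -0.44), and the part of these cells in the member values was not tested. ASB12 lay at 0.999 to 1.95 CPM in CON and 1.71 to 3.56 in RES, a difference of 0.71 ± 0.30 (edgeR, adjusted p = 0.999). With fetuses 1 and 23 left out, the differences were 0.46 ± 0.22, 0.57 ± 0.41 and 0.59 ± 0.31, none of the 3 had an unadjusted p under 0.05, and 36 of 66 members were above 0.

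In muscle, the 3 members with the lowest p were FBXO15, TRIM3 and USP8. FBXO15, known from pluripotent cells, lay at 8.14 to 12.8 CPM in CON (median 9.25) and 9.22 to 18.1 in RES (median 12.97), a difference of 0.45 ± 0.17 (edgeR, adjusted p = 0.471). TRIM3 lay at 40.5 to 62.9 CPM in CON and 37.9 to 46.9 in RES, a difference of -0.25 ± 0.10, and USP8, which acts on receptors at endosomes, at 107 to 137 CPM in CON and 90.5 to 119 in RES, a difference of -0.19 ± 0.08 (edgeR, adjusted p = 0.482 for both). All 3 pairs of groups overlapped. With fetuses 1 and 73 left out, the differences were 0.35 ± 0.18 for FBXO15, -0.17 ± 0.09 for TRIM3 and -0.17 ± 0.08 for USP8, and USP8 and TRIM10 were the members with an unadjusted p under 0.05. ASB2, listed by the study for this comparison, lay at 11.8 to 26.3 CPM in CON (median 20.7) and 6.48 to 62.6 in RES (median 25.6), a fitted difference of 0.68 ± 0.39, with RES reaching beyond CON on both sides. The muscle markers themselves ranged from 833 to 2210 CPM in CON and from 481 to 4207 in RES, and all 11 had a fitted value above 0 (median 0.52) with none at an unadjusted p under 0.05. All 6 neuron markers tested in muscle had a fitted value below 0 (median -1.32), with CON fetus 73 highest in their sum and in TRIM3, and their part in the member values was not tested.

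FBXL2 had the lowest interaction p among members (edgeR, adjusted p = 0.829). Its fitted diet difference within the tissue was above 0 in the liver (0.59 ± 0.26) and below 0 in the other tissues, with -0.21 ± 0.17 in the cerebrum and -0.18 ± 0.16 in muscle, with group medians of 4.76 CPM in CON livers and 7.80 in RES livers. In the 10 livers of low mitochondrial share the difference was 0.27 ± 0.23. With fetuses 1, 23 and 73 left out, no member had an unadjusted interaction p under 0.05.

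The other genes of the pathway, named as far as the tables give symbols, did not pass the adjusted test between diets either, and their unadjusted counts stand beside 24.1% of all genes in the liver, 2.55% in the cerebrum and 9.91% in muscle. Of 17 E1 and E2 genes, 7 had an unadjusted p under 0.05 in the liver (2 higher, 5 lower in RES), none in the cerebrum and 1 in muscle. Over all genes with such a p in the liver, 1828 were higher and 1432 lower in RES. The liver genes with the lowest p were UBE2B (median 63.8 CPM in CON and 46.6 in RES, log2 difference -0.66 ± 0.22) and UBE2D1 (2.06 and 0.56 CPM, -1.42 ± 0.52), and the muscle gene was UBE2H (41.6 and 32.1 CPM, -0.27 ± 0.11). Of 11 genes of the cullin core and the COP9 signalosome, which strips NEDD8 from cullins, 3 had an unadjusted p under 0.05 in the liver and 2 in muscle. COPS4 and GPS1, subunits of that complex, had liver differences of -0.54 ± 0.18 and 0.48 ± 0.18, in opposite directions. NEDD8 itself and RNF7, the RING subunit paired with CUL5, had muscle differences of 0.18 ± 0.07 and 0.16 ± 0.07.

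Of 8 deubiquitinases outside the USP family, 3 had an unadjusted p under 0.05 in the liver and 2 in muscle, beside 24.1% and 9.91% of all genes. OTUB1 and JOSD2 had liver differences of 0.58 ± 0.21 and 0.68 ± 0.25, and OTUD4 and BAP1 muscle differences of -0.16 ± 0.06 and 0.15 ± 0.06. All 9 proteasome genes had a fitted value above 0 in muscle (median 0.18, beside -0.01 over all genes), and 4 of them an unadjusted p under 0.05, beside fitted values above 0 for 11 of 11 muscle markers and below 0 for 6 of 6 neuron markers, whose part was not tested, with PSMC1 at a median of 99.0 CPM in CON and 111 in RES (0.27 ± 0.09) and PSMB2 at 104 and 113 (0.22 ± 0.08). In the liver 1 of the 9, PSMA1, had one, at -0.85 ± 0.34. Of 6 partners or substrates of the adaptors, SMAD4 had an unadjusted p under 0.05 in the liver (-0.76 ± 0.29). Among the 10 livers with a mitochondrial share up to 25%, the liver differences were -0.34 for UBE2B, -1.12 for UBE2D1, -0.24 for COPS4, 0.31 for GPS1, 0.28 for OTUB1, 0.35 for JOSD2, -0.32 for PSMA1 and -0.43 for SMAD4, and UBE2B and GPS1 were those of the 8 that had an unadjusted p under 0.05. In muscle without fetuses 1 and 73, the differences were -0.24 for UBE2H, 0.16 for NEDD8, 0.15 for RNF7, -0.12 for OTUD4, 0.15 for BAP1, 0.27 for PSMC1 and 0.16 for PSMB2, and OTUD4, BAP1 and PSMC1 were those of the 7 that had an unadjusted p under 0.05.

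Between the liver and the other tissues, the medians of these lists are set beside those of the members. The proteasome genes had a median of -0.65 for cerebrum minus liver and -0.76 for muscle minus liver, the E1 and E2 genes -0.09 and -0.56, and the other deubiquitinases -0.41 and -0.65, against 0.82 and 0.90 for the members. Of the 9 proteasome genes, 3 were called lower in the cerebrum and 2 lower in muscle than in the liver, beside 27.1% and 23.2% of all genes, and none higher. The cullin core had medians of 0.07 and -0.06, and the 6 partners and substrates 0.55 and 1.598, with 4 of 6 called higher in muscle than in the liver, beside 33.5% of all genes. For muscle minus cerebrum the medians were -0.06 for the E1 and E2 genes, -0.15 for the cullin core, -0.18 for the other deubiquitinases, -0.23 for the proteasome and 0.78 for the partners, against -0.23 for the members. None of these differences between lists was tested.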

How the data were processed

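The deposited values were raw counts per gene. The authors made the RNA-Seq counts from paired 50-bp reads with STAR 2.7.3a against ARS-UCD1.2, and the strand column kept is not given in the sources used here. A gene was dropped where its CPM was under 1 in 80% or more of the libraries compared. Diets were compared within a tissue with edgeR 4.0.16 (quasi-likelihood test, TMM, sex as covariate, R 4.3.3), and tissues and the interaction over 42 libraries, with Benjamini-Hochberg adjustment over all genes. SE is the fitted difference divided by the square root of F. Printed CPM used TMM factors over 42 libraries for tissues and within a tissue for diets. DESeq2 1.42.0 was an alternative. Each fetus is 1 animal, so libraries with the same number are paired by animal. Correlations of deviations between tissues of a fetus ran from -0.23 to 0.33. Pooled folds carry exact Poisson intervals (95%), which cover counting error only.

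The members and the gene lists were chosen with earlier results of these data known. Genes described singly were the 4 per tissue with the largest smaller difference among those called higher than in both other tissues, the most even member of each family, the 3 with the lowest diet p per tissue, the lowest interaction p, 6 genes paired with tissue markers, and from each pathway list up to 2 genes per tissue with an unadjusted p under 0.05. Genes of families outside this rule were chosen after their values were seen. Of the lists, 12 of 13 mitochondrial genes, 8 of 8 neuron, 7 of 9 hepatocyte, 6 of 11 erythroid, 11 of 11 skeletal muscle, 2 of 4 cartilage, 3 of 5 neural progenitor, 3 of 3 limb mesenchyme, 1 of 3 Schwann and 1 of 3 macrophage markers had a symbol, and 0 of 3 endothelial markers and 0 of 5 muscle ligases outside the rule. The scripts were tested on simulated data. Python 3.11.15 with scipy 1.17.1 was used for correlations and summaries. Protein pairs and promoter motifs were not analysed here, and 1 KLHL gene and 1 gene of the pathway lists are not reported here.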

Additional observations from a re-analysis of the deposited data

Results flagged for a closer look

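Within groups of 7 libraries, 42 groups of the members described singly were checked for a value far from the rest, and 4 had one, where chance gives about 1 in 20 groups. ASB11 in the cerebrum of RES fetus 1 was 29.0 CPM, with the next RES value at 13.9. TRIM21 in the same library was 8.26 CPM, with the next at 1.82. That library also had the hepatocyte, erythroid and muscle markers named above. FBXW5 in the liver of CON fetus 2 was 53.4 CPM, with the next CON value at 32.7, and that liver had a mitochondrial share of 44.9%. TRIM58 in the liver of CON fetus 54 was 40.1 CPM, below the other CON livers at 45.9 to 48.7. The part of these library features in the 4 values was not tested.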

How the results depend on the processing

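The counts of members called between diets (0 in each tissue and for the interaction) were 0 under every alternative run, including each omission of 1 fetus. The unadjusted counts were less firm, for the members and over all genes. No share over all genes is given for the fits with 1 fetus left out. In the liver 15 became 6 without the sex covariate, 2 among livers with a mitochondrial share up to 25%, and 8 to 24 with 1 fetus left out (8 without RES fetus 1, 9 without CON fetuses 46 or 69 or RES fetus 6, 24 without CON fetus 2 or RES fetus 52). Over all genes, the liver count went from 3260 of 13527 to 1347 of 13527 without the sex covariate and 922 of 13435 at the low share. In the cerebrum 3 became 1 without fetuses 1 and 23 and 1 to 5 with 1 fetus left out (1 without RES fetus 1). All genes went from 386 of 15151 to 164 of 15005 without fetuses 1 and 23. In muscle 4 became 2 without fetuses 1 and 73 and 2 to 11 with 1 left out (11 without CON fetus 68). All genes went from 1481 of 14947 to 967 of 14808 without fetuses 1 and 73. For the interaction 6 became 0 without fetuses 1, 23 and 73 and 1 to 9 with 1 left out. All genes went from 897 of 15972 to 374 of 16077 without fetuses 1, 23 and 73. Leaving out libraries by marker genes or mitochondrial share was chosen after seeing the data. Between tissues, a filter that keeps genes with a CPM of at least 1 in 80% of the 42 libraries left 57 members. It gave 30 called for muscle minus liver (46 otherwise, 22 higher against 35) and 20 for muscle minus cerebrum (31, 7 higher against 15). There was 1 muscle-high member (9), because the other 16 members were then not tested. Of all 11269 genes kept by that filter, 2810 were called higher and 2439 lower in muscle than in the liver. Against the cerebrum, 1579 of them were higher and 1384 lower in muscle. Without the fold limit 53 of 73 members differed between muscle and cerebrum, beside 10879 of all 15972 genes. With a replicate block for the animal, 47, 47 and 30 members were called for cerebrum minus liver, muscle minus liver and muscle minus cerebrum, against 47, 46 and 31. The block moved no count of calls by over 1.5 times. Of all 15972 genes, the block had 5384 higher and 4429 lower for cerebrum minus liver. It had 5432 and 3660 for muscle minus liver, and 3097 and 2800 for muscle minus cerebrum. With 1 fetus left out the counts were 45 to 48, 44 to 47 and 29 to 33, and 12 to 16, 8 to 9 and 9 to 10 members were cerebrum-high, liver-high and muscle-high. Within CON, r was -0.32 for TRIM10, 0.34 for TRIM58, 0.88 for TRIM55 and -0.74 for TRIM46, and within RES 0.0256 for TRIM58, 0.73 for KLHL1 and 0.80 for TRIM46 (n = 7 each); the cause was not tested. All other counts of called members stayed within 1.5 times. Depth limits the genes with a handful of counts in a tissue, where folds are intervals or bounds, and the counting interval does not cover the spread between fetuses.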
